A study of Mus musculus with 6 samples.

Results

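The genes described here encode the families of proteins that assemble on pre-mRNA and choose its splice sites. They were taken by gene name from a comparison of CD4+ T helper cells of 2 kinds of female mice, and comprised the Srsf, Hnrnp, Sf3a and Sf3b, Snrp, Snrnp, Prpf, Rbm, U2af, Clk1 to Clk4, Srpk1 and Srpk2, Celf, Mbnl and Ptbp genes that lie on autosomes. A transcript cluster, the set of probes that stands for 1 transcript region on the array, entered where the annotation gave it a single symbol of these families, and each gene was represented by its cluster with the highest mean over the 6 arrays. The rule found 141 clusters of 113 genes, out of 19938 genes measured under a single symbol, and used no difference between the groups. A further 9 clusters with such names lay on the X or Y chromosome or had no chromosome assigned, and did not enter. Hnrnpa1, Hnrnpa3, Snrpn and Clk2, among others, are listed on the array only in clusters with several symbols and are therefore not members.

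The samples were CD4+TCRβ+ cells sorted from axillary, brachial and inguinal lymph nodes of naive females aged 8 weeks. One group was B6, the C57BL/6J strain. The other was B6-ChrYSJL, a consomic line in which the Y chromosome of SJL has been placed on the B6 background. The females carried no Y chromosome themselves, so that the groups differed in the Y chromosome of the line and of their fathers, and both came from litters of mixed sex. Each group had 3 arrays, each hybridised with amplified RNA of a pool of 5 mice, and the spread between pools is therefore a spread of pool means, not of single mice.

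An intron is removed in steps. The U1 small nuclear ribonucleoprotein (snRNP) binds the 5′ splice site, U2AF and then the U2 snRNP with its SF3A and SF3B subcomplexes bind the 3′ end, and the U4/U6.U5 tri-snRNP, which holds several Prpf proteins, joins to form the active spliceosome. SR proteins (Srsf genes) mostly promote and hnRNP proteins mostly repress the use of nearby exons, CLK and SRPK kinases phosphorylate SR proteins, and CELF, MBNL and PTBP proteins set exon choice by cell type. Activated T cells are a classical setting for such switches, as in the exons of the Ptprc (CD45) transcript, which Hnrnpll controls.

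The splicing factor genes differed little between B6-ChrYSJL and B6. None passed a false discovery rate (FDR, Benjamini-Hochberg over all 23410 named clusters, limma) of 0.05, against 4 clusters, or 0.0171%, of the whole array, and the smallest adjusted p of a member was 0.212 for Rbm46. At an unadjusted p under 0.05 limma called 10 of 113 members (8.85%), with 10.6% of all named clusters called. Of these, Rbm46, Snrpe and Sf3b6 were higher in B6-ChrYSJL (4.69% of all clusters were called higher), and Rbm11, Rbm25, Srsf4, Prpf3, Prpf4, Srsf2 and Hnrnpa0 were lower (5.92% of all clusters). The share of members at this threshold was thus near the background of the array in this fit. With an intensity trend in the variances it was above it, at 17 members (7 higher and 10 lower; 15.04% against 11.85% of all clusters). With quantile normalization repeated on the deposited values, 6 members were called higher and 3 lower (7.965% against 10.13%). The calls also depended on single pools, and so did the share of all clusters called. Without B6-ChrYSJL replicate 3, 3 members were called (2.655%, against 7.608% of all clusters). Without B6 replicate 2 or B6 replicate 3 there were 6 (5.31%, against 9.124% and 8.266%), and without one of the others 7 to 9 (6.195% to 7.965%, against 9.761% to 10.75%). Rbm46 and Rbm11 stayed under 0.05 whichever pool was left out, Sf3b6 missed it only without B6-ChrYSJL replicate 3 (difference 0.18), and each of the other 7 missed it under at least 3 of these fits. All differences below are log2 fold changes, B6-ChrYSJL minus B6, and every adjusted p is from limma's two-sided test. With 3 pools in each group, the smallest p that exact permutation allows is 0.1.

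The precision was sufficient to bound the differences. The median log2 fold change of the 113 members was -0.01, beside -0.0036 over all named clusters, and the median absolute difference was 0.06, beside 0.08. The sizes of 112 members were under 0.3. For 111 members the 95% interval of the difference lay within 0.5 of 0, the exceptions being Rbm46 and Snrpe, and for all 113 it lay within 1, that is, inside a change of 2-fold. The values of the 3 pools of one group lay entirely above or below those of the other for 23 members (20.4%), against 17.1% of all clusters. Of these, 9 were higher in B6-ChrYSJL (7.68% of all clusters) and 14 lower (9.42%). A level of 5.98, the 95th percentile of 1210 clusters of olfactory and vomeronasal receptors, served as background. Above it lay 107 members, of which 8 (7.48%) were called, against 11.1% of all clusters above it. The groups did not overlap for 21 of these 107 (19.6%), against 20.2% of all clusters above it. Rbm44, Rbm8a2, Rbm11, Rbm46, Rbm47 and Celf4 lay below it.

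**Figure D1:**
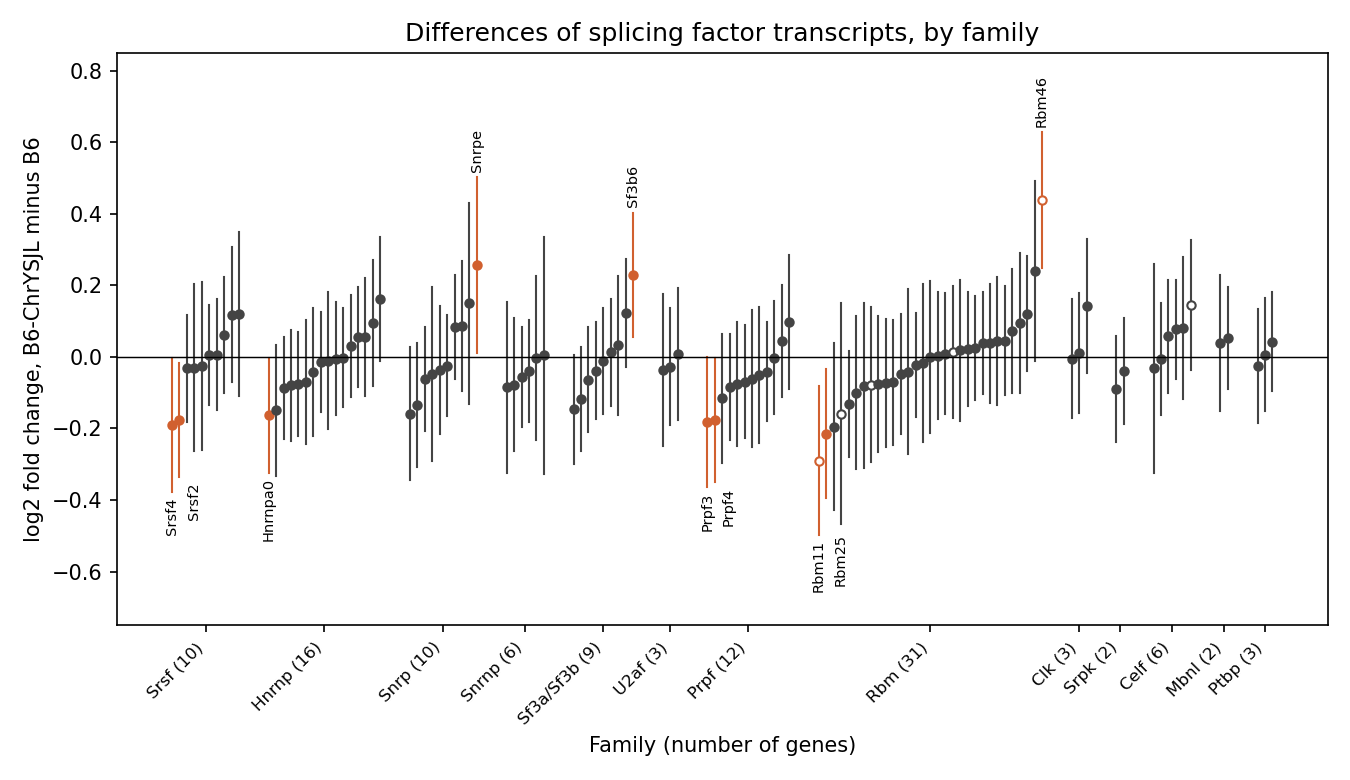
Log2 fold change (B6-ChrYSJL minus B6, vertical axis) of the 113 genes, grouped by family and ordered by size within it. Points are limma estimates, lines their 95% intervals, orange marks an unadjusted p under 0.05 and open points lie below background. Differences of 112 genes are under 0.3 in size and every family but Srpk and Mbnl has genes on both sides of 0.

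SR proteins bind exonic enhancers. Among the 10 Srsf genes none was called higher and 2 were called lower (4.69% and 5.92% of all clusters). The median difference was -0.0099. Srsf2 (SC35), which marks nuclear speckles, read 10.81, 10.67 and 10.78 in B6 and 10.63, 10.58 and 10.52 in B6-ChrYSJL, a difference of -0.18 ± 0.07 (SE, n = 3 pools per group; limma adjusted p = 0.44). Its 3 B6-ChrYSJL pools all lay below the lowest B6 pool. Srsf4 (SRp75) read 8.95, 9.21 and 9.13 in B6 and 8.87, 8.96 and 8.88 in B6-ChrYSJL (-0.19 ± 0.08, limma adjusted p = 0.466). For Srsf4 the groups overlapped, since B6 replicate 1 lay below B6-ChrYSJL replicate 2. Srsf1, the prototype of the family, had a difference of 0.12 and Srsf6 one near 0, and in both the groups overlapped.

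For Srsf3 and Srsf10 the clusters of the same gene gave different values. Srsf3 (SRp20) has 3 clusters, and its member cluster differed by 0.01 ± 0.07. The cluster with the lowest signal of the 3 read 9.47, 9.33 and 9.16 in B6 and 9.67, 9.92 and 9.80 in B6-ChrYSJL, a difference of 0.48 ± 0.10 (limma adjusted p = 0.254), with no overlap. Srsf10 (SRp38), which represses splicing when dephosphorylated, showed the same arrangement. Its member cluster differed by 0.12 ± 0.10 with overlapping groups. Its other cluster read 8.41, 8.64 and 8.51 in B6 and 8.80, 8.88 and 8.75 in B6-ChrYSJL (0.29 ± 0.08, limma adjusted p = 0.334), again with no overlap. Both of these clusters were picked out after their values were seen.

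The annotation gave no position for a cluster, but cluster numbers on this array follow the chromosomes. For 96.7% of the clusters with 1 symbol, the gene lay on the same chromosome as most of the 20 clusters with the nearest numbers. This held for 103 of the 113 members. The 10 exceptions were Srsf3, Srsf5, Srsf10, Srsf11, Hnrnpf, Hnrnpk, Snrpc, Snrpd2, Sf3b4 and Ptbp1, whose chosen clusters were numbered among genes of other chromosomes, for Hnrnpf among genes of the X chromosome. Genes of these families are known to have processed copies elsewhere in the genome, and which locus gave the signal of these 10 clusters was not tested. For Srsf3 and Srsf10, the clusters numbered among genes of their own chromosomes, 17 and 4, were the ones that were higher in B6-ChrYSJL. With the cluster numbered on the gene's own chromosome in place of the chosen one (Srsf11 had none), 12 of 112 genes (10.71%, against 10.62% of all clusters) were called at an unadjusted p under 0.05, of which 5 were higher, and none passed an FDR of 0.05.

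**Figure D2:**
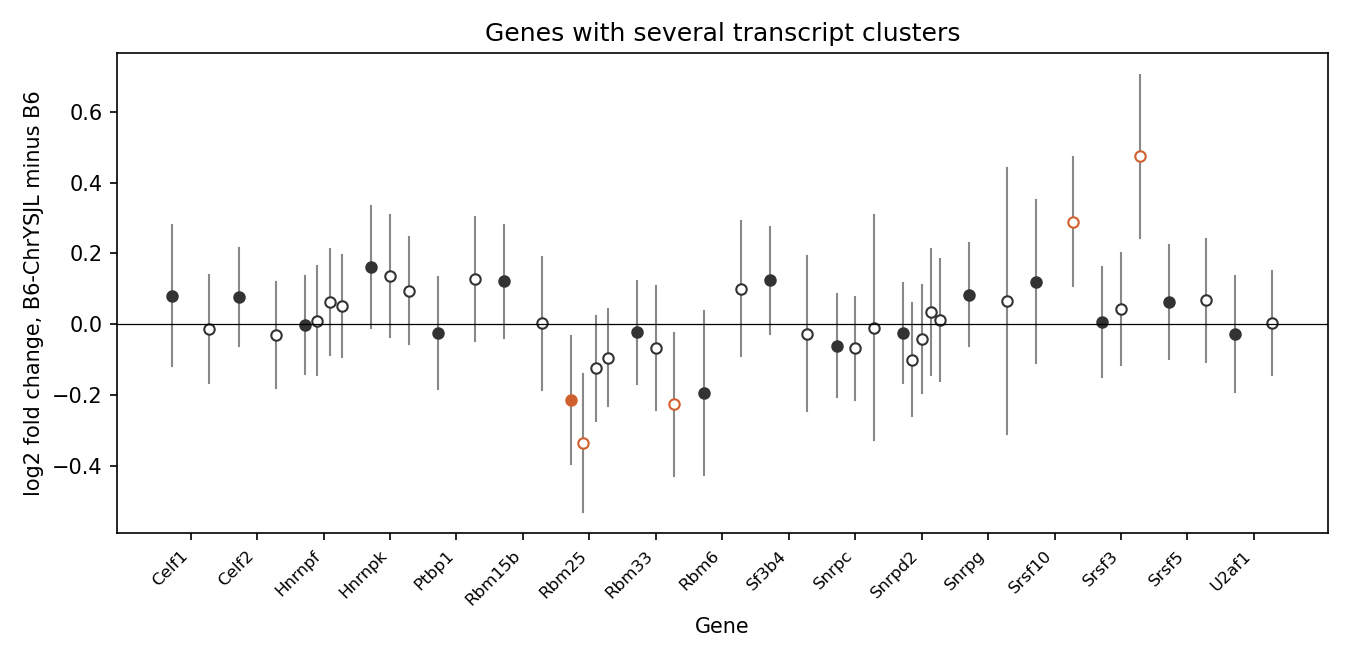
Log2 fold change (B6-ChrYSJL minus B6) of each cluster of the 17 genes with several clusters, with 95% intervals. Filled points are the clusters that represent the gene, open points its other clusters, and orange marks an unadjusted p under 0.05. The clusters of Rbm25 lie below 0 together, while those of Srsf3 and Srsf10 spread, with the orange open points at 0.48 and 0.29.

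In all, 17 genes had several clusters, 45 clusters together. In 8 of these genes the clusters differed in sign, and the largest range within a gene was the 0.47 of Srsf3. At an unadjusted p under 0.05 stood 5 of the 45 clusters, beside 10.6% of all named clusters. They were 1 of Srsf3, 1 of Srsf10, 2 of Rbm25 and 1 of Rbm33.

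The hnRNP proteins coat nascent transcripts. Of the 16 Hnrnp genes 1 was called lower and none higher (5.92% and 4.69% of all clusters). The median difference was -0.01, and 11 of 16 differences were negative, beside 55.6% of all clusters above background. Hnrnpa0, which binds AU-rich elements, read 7.40, 7.30 and 7.37 in B6 and 7.23, 7.25 and 7.10 in B6-ChrYSJL (-0.16 ± 0.07, limma adjusted p = 0.466). All B6-ChrYSJL pools lay below all B6 pools. Hnrnpk, a poly(C)-binding protein, went the other way without passing the threshold. It read 11.53, 11.58 and 11.58 in B6 and 11.62, 11.85 and 11.72 in B6-ChrYSJL (0.16 ± 0.08, limma adjusted p = 0.496), and its 3 clusters gave 0.09 to 0.16. Hnrnpll, the CD45 exon regulator, read 7.48, 7.62 and 7.72 in B6 and 7.51, 7.47 and 7.40 in B6-ChrYSJL (-0.15 ± 0.08, limma adjusted p = 0.544), with overlap. Its 95% interval reached from -0.33 to 0.03.

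The Snrp genes encode the Sm ring that all spliceosomal snRNPs except U6 share (here Snrpb, Snrpd1 to Snrpd3, Snrpe, Snrpg) and proteins of U1 and U2. Of 10 genes 1 was called higher and none lower (4.69% and 5.92% of all clusters), and the median was -0.03. Snrpe, the Sm protein E, read 10.51, 10.43 and 10.61 in B6 and 10.56, 10.97 and 10.77 in B6-ChrYSJL (0.26 ± 0.11, limma adjusted p = 0.464). Its groups overlapped, since B6-ChrYSJL replicate 1 lay below B6 replicate 3. Of the other Sm genes, Snrpd1 (0.15) and Snrpg (0.08) had positive differences, and Snrpb (-0.16), Snrpd3 (-0.05) and Snrpd2 (-0.02) negative ones. None of these 5 stood at an unadjusted p under 0.05, and each 95% interval reached both signs. Whether the Sm genes shifted together was not tested. Of the 6 Snrnp genes, specific to single snRNPs, none was called. In 5 of 6 the difference was negative, beside 55.6% of all clusters above background, and the median was -0.05. Snrnp70, the U1 70K protein, differed by -0.08. Snrnp200, the helicase that unwinds U4 from U6, differed by -0.04 ± 0.06. Snrnp35, of the minor spliceosome, had the widest spread over arrays of its family, from 6.19 to 6.75 within B6, and differed by 0.0046 ± 0.14.

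SF3A and SF3B clamp the U2 snRNP on the branch point. The 9 genes had a median of -0.01, and 1 was called higher and none lower (4.69% and 5.92% of all clusters). Sf3b6 (p14), which contacts the branch point adenosine, read 9.37, 9.32 and 9.32 in B6 and 9.44, 9.58 and 9.67 in B6-ChrYSJL (0.23 ± 0.08, limma adjusted p = 0.381). All its B6-ChrYSJL pools lay above all B6 pools. The groups did not overlap for 5 of the 9 genes, beside 17.1% of all clusters and 20.2% of those above background. They separated in both directions, with Sf3b6 and Sf3b4 higher and Sf3a1, Sf3a2 and Sf3b2 lower. Sf3b4 differed by 0.12 ± 0.07, and by -0.03 ± 0.10 on its other cluster. Sf3b2 differed by -0.12 ± 0.06, Sf3a1 by -0.15, and Sf3b1, the largest SF3B subunit, by -0.01. The within-group spread of the family was small, with a median SD of 0.05, beside 0.09 for all clusters above background. The part of this spread in the separation was not tested.

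Sequences near the start sites gave one feature that the rule had not used. RefSeq promoter windows (GRCm38.p6, 250 bases before to 50 after the start) were matched for 95 of 113 members. The word CCGGAAG, sought on both strands, occurred in 25 of them (26.3%), in 17.65% of the windows of genes measured above background and in 9.12% of all 27025 windows. It occurred in 6 of the 7 windows matched for Sf3a and Sf3b genes (85.7%). This family was picked after a search of 4 words over 13 families, as the one with the highest share of this word. The share was 4 of 8 in Snrp (50%), 1 of 2 in Clk, 2 of 6 in Snrnp (33.3%), 3 of 10 in Srsf, 3 of 11 in Prpf (27.3%), 4 of 24 in Rbm (16.7%) and 2 of 14 in Hnrnp (14.3%), and no window of U2af, Srpk, Celf, Mbnl or Ptbp genes (2, 2, 5, 2 and 2 windows) held it. The word resembles the core recognised by ETS factors. A match is a description of the letters and not a bound site. The 50 bases that hold it, all before the start, are shown for these 6 genes because the word was the feature most of the family shared. They read 5′ to 3′ along the gene, with CCGGAAG or its reverse complement in capitals.
Sf3a1, chr11:4160304-4160353, plus strand: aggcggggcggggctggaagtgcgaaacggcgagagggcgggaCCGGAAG
Sf3a2, chr10:80798637-80798686, plus strand: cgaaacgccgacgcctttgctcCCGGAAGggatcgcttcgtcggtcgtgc
Sf3a3, chr4:124714749-124714798, plus strand: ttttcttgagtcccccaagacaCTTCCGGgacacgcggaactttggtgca
Sf3b2, chr19:5295458-5295507, minus strand: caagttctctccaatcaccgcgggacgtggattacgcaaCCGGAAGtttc
Sf3b3, chr8:110847004-110847053, minus strand: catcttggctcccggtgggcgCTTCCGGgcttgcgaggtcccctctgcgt
Sf3b6, chr12:4817516-4817565, plus strand: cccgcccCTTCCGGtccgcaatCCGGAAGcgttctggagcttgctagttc
The word stood directly before the start in Sf3a1 and within a few bases of it in Sf3b2, and lay further upstream in the others. Sf3b6 held it on both strands. Among these 6 genes the difference was positive for Sf3b6 and Sf3b3 and negative for Sf3a1, Sf3a2, Sf3a3 and Sf3b2. Only Sf3b6 was called, and a link between the word and the differences was not tested. Across the 95 windows the median GC content was 59.7% and the median number of CpG dinucleotides 24, beside 20 for genes above background and 5 for genes below it. Also sought on both strands, GGGCGG occurred in 63.2% of the members' windows (62.4% for genes above background), CCAAT in 40.0% (37.8%) and TATAAA in 12.6% (7.30%). Of all windows, 35.9% held GGGCGG, 37.9% CCAAT and 14.2% TATAAA.

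U2AF recognises the polypyrimidine tract and the AG of the 3′ splice site. None of its 3 genes was called. U2af1 differed by -0.03 ± 0.07, U2af2 by 0.0081 ± 0.08 and U2af1l4 by -0.04 ± 0.09, and all groups overlapped.

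The Prpf genes include those of proteins of the tri-snRNP and of complexes that activate it. Of 12 genes 2 were called lower and none higher, beside 5.92% and 4.69% of all clusters. Of the 12 differences 10 were negative, beside 55.6% of all clusters above background, and the median was -0.07. Prpf3 and Prpf4, which bind each other on the U4/U6 snRNP, were the 2 that were called. Prpf3 read 8.72, 8.88 and 8.87 in B6 and 8.59, 8.57 and 8.75 in B6-ChrYSJL (-0.18 ± 0.08, limma adjusted p = 0.47). Prpf4 read 8.94, 9.12 and 9.15 in B6 and 8.87, 8.94 and 8.87 in B6-ChrYSJL (-0.18 ± 0.08, limma adjusted p = 0.466). For Prpf3 the groups overlapped, and for Prpf4 they were separate only in the decimals beyond those printed. Prpf31, another U4/U6 protein, differed by 0.10, and Prpf8, the core of the spliceosome, by -0.04. In the mean over the 12 genes, each gene centred on its own 6 arrays, B6 replicate 1 stood at -0.04, among the B6-ChrYSJL pools (-0.04 to -0.01), and the other B6 pools at 0.05 and 0.07.

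**Figure D3:**
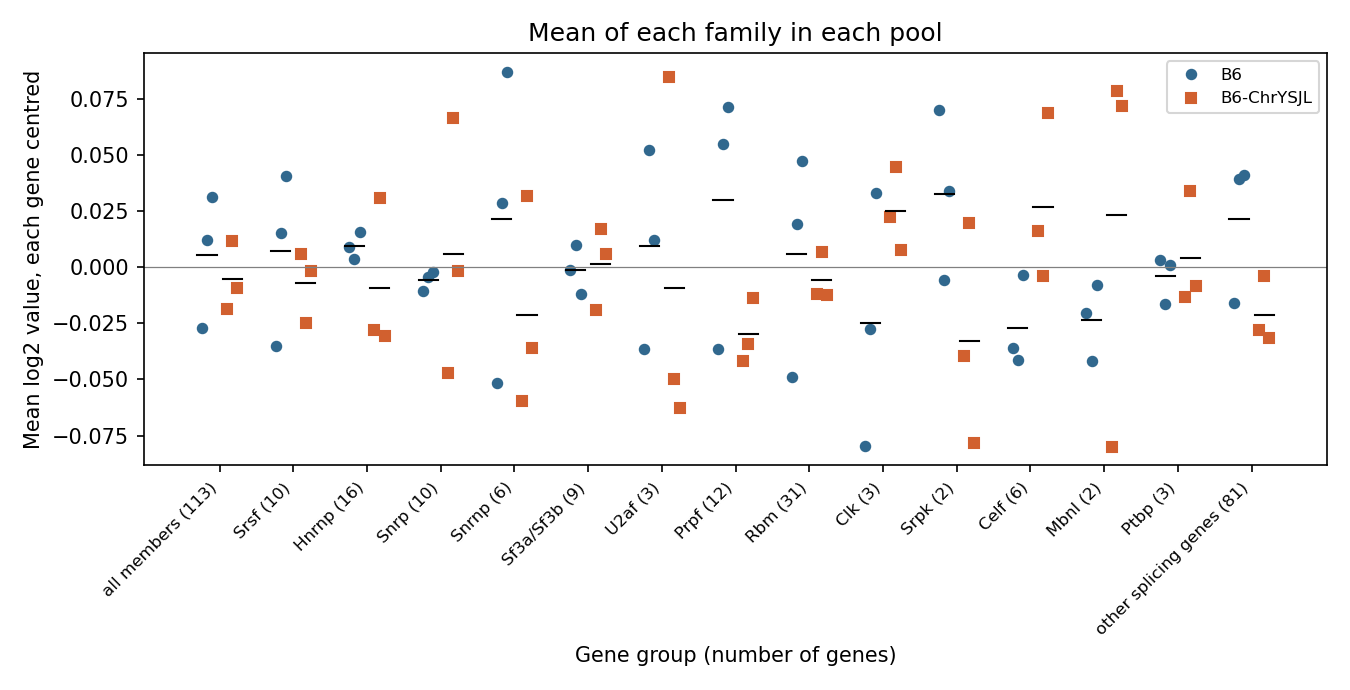
Mean log2 value of each family in each pool (vertical axis), with every gene first centred on its mean over the 6 arrays. Circles are B6 pools, squares B6-ChrYSJL pools and bars group means. The pools of the groups overlap in all 13 families, and no pool mean exceeds 0.09 in size.

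The Rbm genes share an RNA recognition motif and little else. Of 31 genes 1 was called higher and 2 lower (4.69% and 5.92% of all clusters), and the median was -0.00053. Rbm25, which binds U1-associated factors and affects 5′ splice site choice, read 10.40, 10.43 and 10.52 in B6 and 10.23, 10.35 and 10.12 in B6-ChrYSJL (-0.21 ± 0.08, limma adjusted p = 0.418). It was lower by all 4 of its clusters, from -0.34 to -0.09, and in each of them all B6-ChrYSJL pools lay below all B6 pools. The cluster with the largest difference read 10.19, 10.27 and 10.18 in B6 and 9.96, 9.95 and 9.71 in B6-ChrYSJL (-0.34 ± 0.08, limma adjusted p = 0.319). These clusters are parts of 1 gene and share the same RNA, so they are not separate replicates. Rbm33, with 3 clusters, differed by -0.02 on its member cluster and by -0.23 ± 0.09 on the one with the lowest signal (limma adjusted p = 0.437).

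Rbm46, an RNA-binding protein known from germ cells, and Rbm11 had the extreme differences of all 113 genes and lay below background. Rbm46 read 4.86, 4.99 and 5.07 in B6 and 5.44, 5.30 and 5.50 in B6-ChrYSJL (0.44 ± 0.08, limma adjusted p = 0.212). Rbm11 read 5.13, 5.17 and 4.87 in B6 and 4.78, 4.82 and 4.70 in B6-ChrYSJL (-0.29 ± 0.09, limma adjusted p = 0.368). In both the groups were separate, but at levels where receptor genes not known in T cells also read. Above background, the largest differences of uncalled Rbm genes were those of Rbm12b2 (0.24 ± 0.11, limma adjusted p = 0.486) and Rbm6 (-0.19 ± 0.10, limma adjusted p = 0.537). Rbm5, a neighbour of Rbm6 in sequence and on chromosome 9, differed by 0.0033 ± 0.08.

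**Figure D4:**
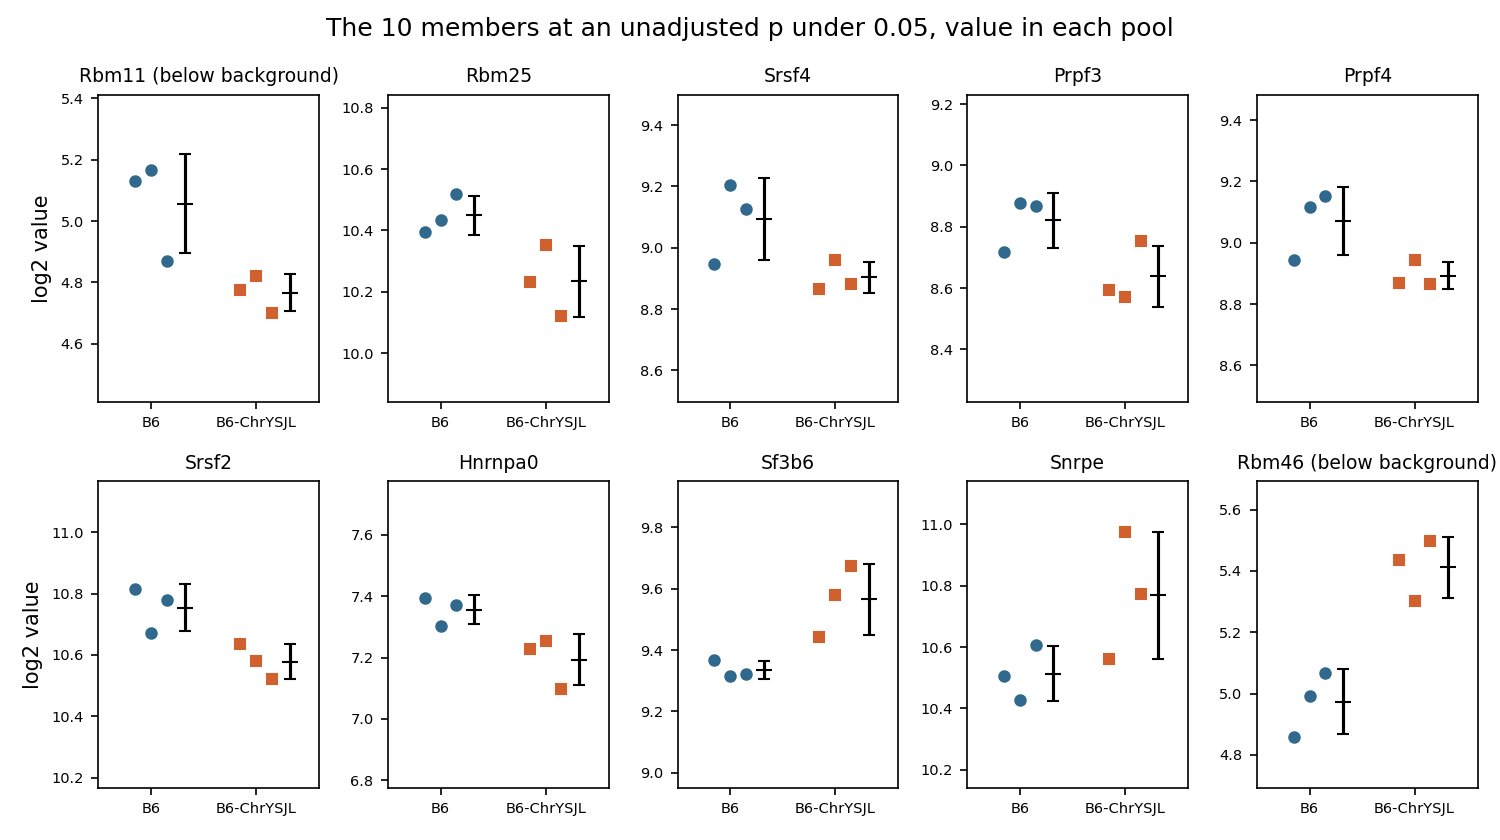
Log2 value in each pool for the 10 genes at an unadjusted p under 0.05, with mean and SD bars; each panel has its own log2 scale. Groups do not overlap for 7 genes, beside 17.1% of all clusters, and overlap for Snrpe, Srsf4 and Prpf3. The genes were chosen by p on these same values, so their separation adds no support. Rbm46 and Rbm11 lie below background, and no gene passed an FDR of 0.05.

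The kinases and the tissue-type regulators had no called gene. Clk1, which phosphorylates SR proteins, read 10.26, 10.38 and 10.48 in B6 and 10.42, 10.60 and 10.54 in B6-ChrYSJL (0.14 ± 0.08, limma adjusted p = 0.572), with overlap. Clk3 (0.01 ± 0.07) and Clk4 (-0.0049 ± 0.07) differed less. Srpk1 differed by -0.04 ± 0.06 and Srpk2 by -0.09 ± 0.06. The 6 Celf genes had a median of 0.07, led by Celf4 (0.15 ± 0.08), which is below background, and Celf3 read between 6.19 and 6.61 over the 6 arrays. Of the muscleblind genes, Mbnl1 differed by 0.05 ± 0.06 and Mbnl2 by 0.04 ± 0.08. Ptbp1 differed by -0.03 ± 0.07, with 0.13 ± 0.08 on its other cluster, Ptbp2 by 0.0067 ± 0.07 and Ptbp3 by 0.04 ± 0.06. The 95% intervals of these genes reached from -0.32 (Celf3) to 0.33 (Clk1 and Celf4).

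The study lists 6 of the 113 genes as alternatively spliced between the groups, a list chosen on these same samples. The share of all genes so listed was not computed here, so the 6 are a description only. Their gene-level differences were -0.04 for Srpk1, -0.12 for Sf3b2, -0.04 for Snrnp200 and 0.0033 for Rbm5. On the clusters listed they were -0.03 for Sf3b4 and -0.07 for Rbm33. For Sf3b2 all B6-ChrYSJL pools lay below all B6 pools, and for the others the groups overlapped. None was called at an unadjusted p under 0.05. Gene-level values summarise the probes of a cluster and do not test exon use.

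Other genes of splicing, 81 measured of 87 listed outside these name patterns, gave a similar picture. Limma called 4 of 81 (4.94%, against 10.6% of all clusters) at an unadjusted p under 0.05 and none at an FDR of 0.05. Lsm6, of the ring on U6, was higher (0.20 ± 0.08, adjusted p = 0.441). This gene lies on chromosome 8, but its cluster was numbered between those of Prpf8 and Luc7l3, both on chromosome 11. Which locus gave its signal was not tested. Sugp1, a partner of SF3B1, was lower (-0.31 ± 0.08, adjusted p = 0.318), as were Ddx46, the helicase that prepares the U2 snRNP (-0.20 ± 0.06, adjusted p = 0.376), and Sart3, which recycles U4/U6 (-0.21 ± 0.08, adjusted p = 0.437). Of the 81 differences 55 (67.9%) were negative, beside 58.4% of the members' and 55.6% of all clusters above background.

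The 6 arrays were alike, with correlations of 0.991 to 0.993. The list of 7 measured T helper genes was above background throughout, with a mean of 12.0945 to 12.1104 in B6 and 12.0503 to 12.0858 in B6-ChrYSJL. Of its 7 differences 6 were negative, between -0.09 and -0.0032, and none was called at an unadjusted p under 0.05. Cd5, Lat and Thy1 did not overlap between groups, beside 17.1% of all clusters. The CD8 genes Cd8a and Cd8b1 were both lower in B6-ChrYSJL (7.03 to 7.18 as a mean, against 7.42 to 7.62). Both were called at that threshold (Cd8a -0.54 ± 0.12, Cd8b1 -0.28 ± 0.09), beside 5.92% of all clusters called lower. In both the groups did not overlap. Of 11 B cell genes 8 were above background and 10 had a positive difference. H2-Ab1 and H2-Eb1 were called higher, beside 4.69% of all clusters. The mean of the list was 6.08 to 6.16 in B6 and 6.08 to 6.53 in B6-ChrYSJL. Of the 10 genes of stress and handling all differences were negative and 3 were called lower, beside 5.92% of all clusters. The largest was that of Hspa1a (-1.42 ± 0.22, limma adjusted p = 0.134). The mean of the list was 9.001 to 9.26 in B6-ChrYSJL and 9.27 to 9.58 in B6. Of the stroma list 3 of 6 genes were called higher, beside 4.69% of all clusters. The part of these lists in the differences above was not tested. In such bulk samples fewer cells of a type and less RNA per cell cannot be told apart.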

How the data were processed

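Sorted CD4+TCRβ+ cells of B6 and B6-ChrYSJL females were measured on Affymetrix Mouse Gene 1.0 ST arrays, 3 pools of 5 mice per group. The input was 50 ng of RNA, which was amplified. RMA was run by the authors (background correction, quantile normalization, summary over probes) in Partek, and they deposited 1 log2 value per cluster and array, which was used as it stands. Quantile normalization gives all arrays nearly the same distribution, so a shift common to most genes would not be seen.

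Groups came from the sample labels. Clusters were named by the platform annotation, and gene chromosomes and promoters came from RefSeq tables for GRCm38.p6. The 23410 named clusters (21789 with 1 symbol, 1621 with several) entered 1 linear model without a block (limma 3.58.1, lmFit and eBayes, run in R 4.3.3). P-values were adjusted by Benjamini-Hochberg over the full set. Tables and plots used Python 3.11.15, pandas 2.3.3 and matplotlib 3.10.9. The fit was tested on simulated data. The number of arrays limits the precision: the median SE of a log2 fold change was 0.08.

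Members and gene lists were chosen with earlier results of these data known. Genes are named where called at an unadjusted p under 0.05, in families of 5 or fewer genes, among the 5 highest or lowest differences, listed by the study as alternatively spliced, below background in a family of under 8, or with the largest spread in a family; others are named for their role or after their values were seen. Alternatives were the methods' t-test, other variance models, array weights, other sets of clusters, other scalings, the mean over clusters, a replicate block, leaving out each pool, and another choice of cluster, added after the data were seen.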

Additional observations from a re-analysis of the deposited data

How the results depend on the processing

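No member passed an FDR of 0.05 under any of the alternatives run, where limma's smallest adjusted p of a member ran from 0.127 to 0.583, and the median difference stayed between -0.03 and -0.0011. Counts at an unadjusted p under 0.05 moved more. Against 3 higher members, there were 7 with an intensity trend in the variances (beside 10 lower), 6 with quantile normalization repeated, 5 with the mean over the clusters of a gene and 5 with the cluster numbered on the gene's own chromosome, a choice made after seeing the data. Against 7 lower members, there were 3 with all deposited clusters tested, 3 with quantile normalization repeated and 3 with the replicate block. With all deposited clusters 4.425% of members were called in either direction, against 9.661% of all clusters. With the mean over clusters it was 10.62%, against 10.55% of all tested. Repeated quantile normalization gave 6 higher and 3 lower members, where the main fit gave 3 higher and 7 lower. The shares of all clusters in each direction were not computed for the alternatives. Leaving out 1 pool gave 1 to 5 higher and 1 to 7 lower members, lowest for the first without B6-ChrYSJL replicate 3 and for the second without B6 replicate 3. The methods' t-test gave 12 members at an unadjusted p under 0.05 (10.62%, against 9.714% of all clusters) and none after Benjamini-Hochberg adjustment.

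Same-numbered pools showed no shared deviation: their deviations from the group means correlated at -0.0001, -0.04 and -0.02. The sample titles do not say whether same-numbered pools were handled together, and these correlations cannot tell. The fit with the replicate block called 6 members (3 higher, 3 lower; 5.31%, against 9.453% of all clusters).

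Small differences changed sign. With array medians subtracted, Ptbp2 stood at -0.0038, Rbm5 at -0.0072, Snrnp35 at -0.0059 and U2af2 at -0.0024. With quantile normalization repeated, Clk4 stood at 0.0163, Rbm33 at 0.0029, Snrnp35 at -0.0058 and U2af1l4 at 0.0097. Clk3 stood at -0.0072 with array weights, Ptbp1 at 0.0515 with the mean over clusters and at 0.1283 on the cluster of its own chromosome, and Sf3b4 at -0.0263 on that of its own. Leaving out 1 pool gave -0.1636 to 0.0557 for Celf3, -0.0236 to 0.0668 for Clk3, -0.056 to 0.0334 for Clk4, -0.0054 to 0.1182 for Mbnl2, -0.066 to 0.0089 for Ptbp1 and -0.0309 to 0.0532 for Ptbp2. It gave -0.0457 to 0.0005 for Rbm33, -0.0435 to 0.0538 for Rbm5, -0.1051 to 0.1727 for Snrnp35, -0.0599 to 0.0271 for U2af1, -0.1108 to 0.0621 for U2af1l4 and -0.0521 to 0.0563 for U2af2. The cause of these changes was not tested. For the 6 members below background, signal over background limits what a difference can mean.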
